A study of Mus musculus with 15 samples.

Results

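Genes of the cadherin and catenin families were followed here as a set of 9 of the 20910 genes counted in cultured mouse RPE cells and the 25038 genes counted in mouse RPE/choroid. They were named genes: the cadherins *Cdh1*, *Cdh2*, *Cdh3*, *Cdh11* and *Cdh13*, and the catenins *Ctnna1*, *Ctnnb1*, *Ctnnd1* and *Jup*. All 9 were in both tables and all 9 had enough reads to be tested in every comparison.

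The study asked what loss of *Prom1*, which encodes the membrane glycoprotein Prominin-1, does to the retinal pigment epithelium (RPE). Cultured mRPE cells came from pooled C57/BL6J mice and had been immortalized with a lentivirus carrying HPV E6/E7, so WT and knockout cells shared these genes. The WT group held 4 libraries. The knockout cells stably expressed lentiviral Cas9 and had received a guide RNA against *Prom1*; they were lines KO22 (3 libraries) and KO26 (2 libraries), each a separate edited line, so that the libraries of a line are not independent knockouts. The study set both libraries of KO26 aside as outliers on principal components and left them out of its own mRPE comparison. They were kept here as a group of their own, and every value of that line rests on them. The methods name a scrambled guide for control cells, but the labels do not say whether the WT libraries came from cells with Cas9 and that guide. RPE/choroid came from WT mice (3 libraries) and from mice labelled *Prom1*-KO (3 libraries), bred from *Prom1* fl/fl and RPE65-Cre animals and given tamoxifen, so that recombination was directed to RPE and not to the choroid. The labels give no age for the animals sequenced and do not say which libraries came from separate cultures or animals, so p-values measure only the spread between these libraries.

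Cadherins are calcium-dependent adhesion receptors that join neighbouring cells at adherens junctions. Their cytoplasmic tails bind p120-catenin (*Ctnnd1*) near the membrane and β-catenin (*Ctnnb1*) or plakoglobin (*Jup*) further along, and α-catenin (*Ctnna1*) links the last of these to actin. β-catenin is also the nuclear effector of Wnt signalling, and plakoglobin is also a part of desmosomes. RPE is a pigmented epithelium that relies on such junctions for its barrier. E-cadherin (*Cdh1*) and P-cadherin (*Cdh3*) are typical of epithelia, N-cadherin (*Cdh2*) of neural and mesenchymal cells, and cadherin-11 (*Cdh11*) of mesenchymal cells, while T-cadherin (*Cdh13*) is held by a lipid anchor and has no tail for catenins.

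The libraries held 8076188 to 27537863 counted reads in mRPE and 48154444 to 61766179 in RPE/choroid. The mRPE libraries carried 2 library set numbers, 8995 (1 library of each cell group) and 9262 (the other libraries). Mitochondrially encoded genes took 12.9% to 21.6% of reads in mRPE and 64.9% to 71.3% in 5 of 6 RPE/choroid libraries, but 84.2% in replicate 3 of the libraries labelled *Prom1*-KO, which stood apart. *Prom1* in mRPE was not analysed here. In RPE/choroid, *Prom1* was at 48.7, 49.6 and 53.3 CPM (read counts scaled to equal library sizes with the TMM method) in WT and at 49.9, 48.1 and 35.5 CPM in the libraries labelled *Prom1*-KO (log2 fold change -0.18, edgeR adjusted p = 0.824), so whole-tissue counts of the targeted gene did not separate the groups on this scale. Scaled to library totals instead, *Prom1* was at 58.2, 55.7 and 70.7 CPM in WT and at 53.4, 51.7 and 17.3 CPM in the libraries labelled *Prom1*-KO, all 3 below WT. Of 7 RPE markers fixed for this check, 2 (*Best1* and *Rdh5*) were in the mRPE table, at a summed 6.79 to 8.54 CPM in WT, 5.12 to 18.6 CPM in KO22 and 4.55 to 7.86 CPM in KO26, while *Rpe65*, *Rlbp1*, *Lrat*, *Rgr* and *Ttr* were not listed in that table. The 18.6 CPM rested on *Best1* in KO22 replicate 1, at 17.4 CPM beside 4.05 and 3.34 CPM in replicates 2 and 3. *Rdh5* was at 1.21, 2.60 and 1.78 CPM in KO22, below the 3.62 to 4.61 CPM of WT. The 5 listed fibroblast markers of 6 summed to 12804 to 17500 CPM in WT mRPE, 5564 to 8667 CPM in KO22 and 19866 to 21793 CPM in KO26. Within this sum *Dcn* was not lower in KO22, at 1497, 1133 and 946 CPM beside 414 to 1047 CPM in WT. In WT RPE/choroid all 7 RPE markers were listed, at a summed 1422 to 2303 CPM.

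The cadherin at the highest level was *Cdh11* in WT mRPE and *Cdh1* in WT RPE/choroid, and all 5 cadherins were read in both. To compare genes with each other, counts were divided by the library total and by the length of each gene's annotated exons (CPM per kilobase). In WT mRPE the order of the levels was *Ctnnb1* at 50.4 ± 4.52 CPM per kilobase (SD, n = 4), *Cdh11* at 46.5 ± 3.30, *Ctnna1* at 29.0 ± 0.953, *Cdh13* at 7.47 ± 1.12, *Cdh2* at 7.19 ± 1.33, *Ctnnd1* at 5.61 ± 0.267, *Jup* at 1.72 ± 0.287, *Cdh1* at 0.0569 ± 0.0369 and *Cdh3* at 0.0260 ± 0.0115. The libraries' ranges overlapped between *Ctnnb1* and *Cdh11*, between *Cdh13*, *Cdh2* and *Ctnnd1* as neighbours, and between *Cdh1* and *Cdh3*, so these neighbours did not differ beyond their spread. In WT RPE/choroid the order was *Ctnnb1* at 20.8 ± 2.02 CPM per kilobase (SD, n = 3), *Ctnna1* at 11.0 ± 1.26, *Cdh1* at 9.93 ± 1.97, *Jup* at 8.77 ± 1.00, *Cdh11* at 6.14 ± 1.53, *Cdh3* at 1.90 ± 0.327, *Ctnnd1* at 1.79 ± 0.248, *Cdh2* at 1.06 ± 0.431 and *Cdh13* at 0.629 ± 0.107. Here *Ctnna1*, *Cdh1* and *Jup* overlapped as neighbours, as did *Cdh3*, *Ctnnd1*, *Cdh2* and *Cdh13*. The tables were made separately and no test was run between them. Markers of a stratified surface epithelium (*Krt5*, *Krt14*, *Krt15*, *Trp63* and *Epcam*), a tissue that also uses *Cdh1*, *Cdh3* and *Jup*, summed to 649 to 1186 CPM in WT RPE/choroid, and their part in these levels was not tested.

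**Figure D1:**
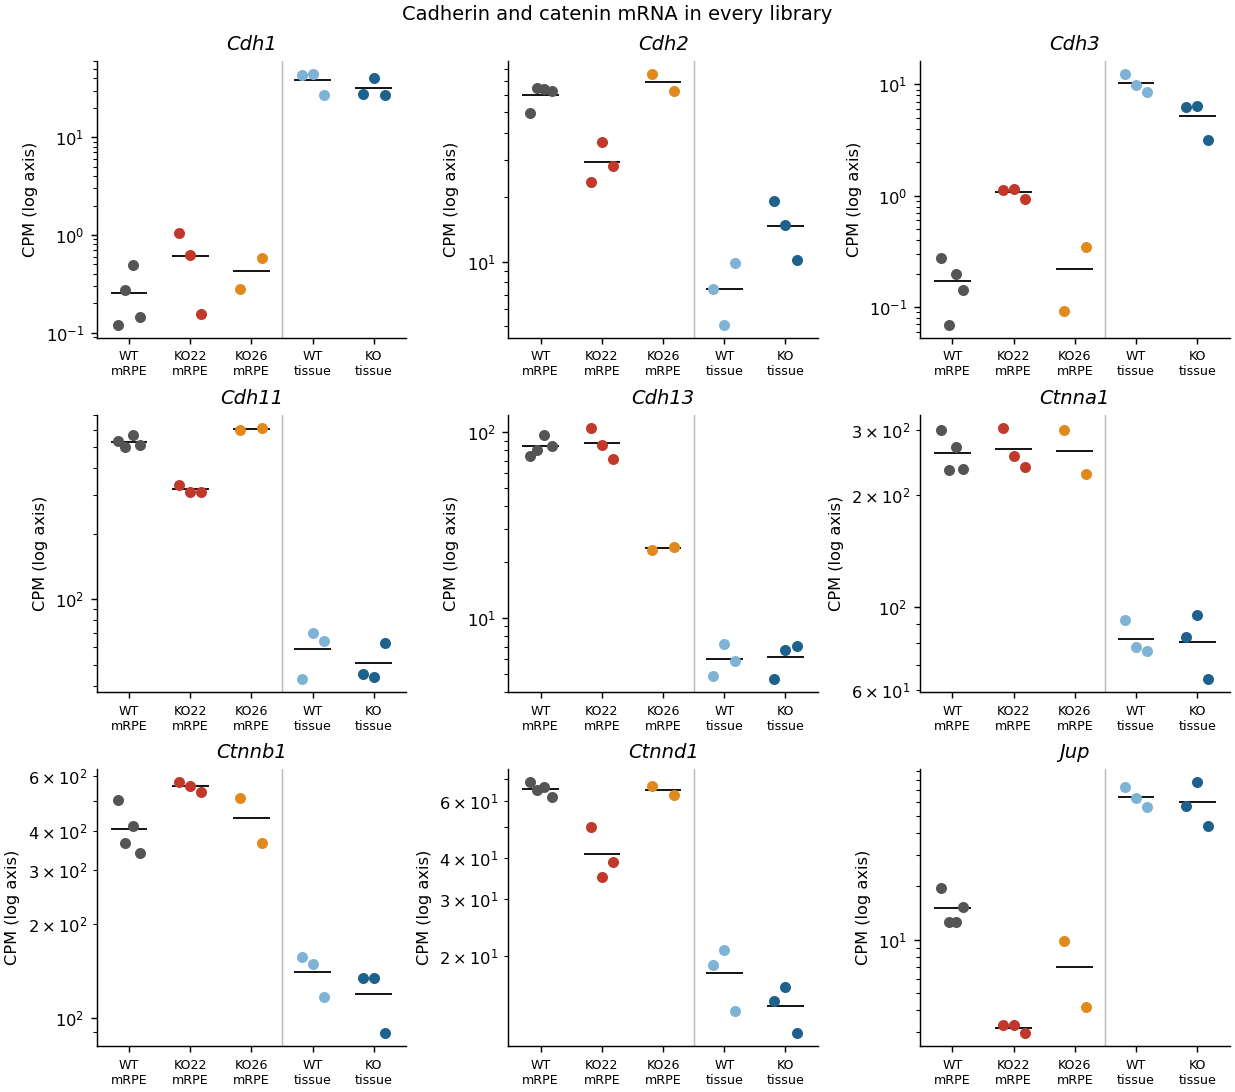
CPM of each of the 9 genes in every library, on a log axis for each gene. Each point is a library, the black line is the group mean, and the grey vertical line separates the mRPE table from the RPE/choroid table (tissue), which were scaled separately. *Jup* in all 3 KO22 libraries sits at 2.95 to 3.29 CPM, below the 12.6 to 19.7 CPM of WT, and *Cdh13* in both KO26 libraries sits at 23.3 and 24.1 CPM, below the other mRPE libraries.

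Of the summed per-kilobase level of the 5 cadherins, *Cdh11* made up 74.9% to 78.9% in WT mRPE, *Cdh13* 11.1% to 12.9% and *Cdh2* 9.90% to 13.0%. In KO22 the make-up was 69.2% to 73.5% *Cdh11*, 17.1% to 22.3% *Cdh13* and 6.58% to 10.8% *Cdh2*. In KO26 it was 82.6% to 84.8% *Cdh11*, 3.24% to 3.34% *Cdh13* and 11.6% to 14.0% *Cdh2*. *Cdh1* and *Cdh3* each stayed under 1% of the sum in every mRPE library. In WT RPE/choroid *Cdh1* made up 40.6% to 57.9%, *Cdh11* 22.6% to 38.7%, *Cdh3* 8.17% to 11.7%, *Cdh2* 3.17% to 8.01% and *Cdh13* 2.60% to 3.57%. *Cdh11* thus made up most of the cadherin mRNA in WT, KO22 and KO26 alike, and *Cdh1* and *Cdh11* together led in whole RPE/choroid.

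**Figure D2:**
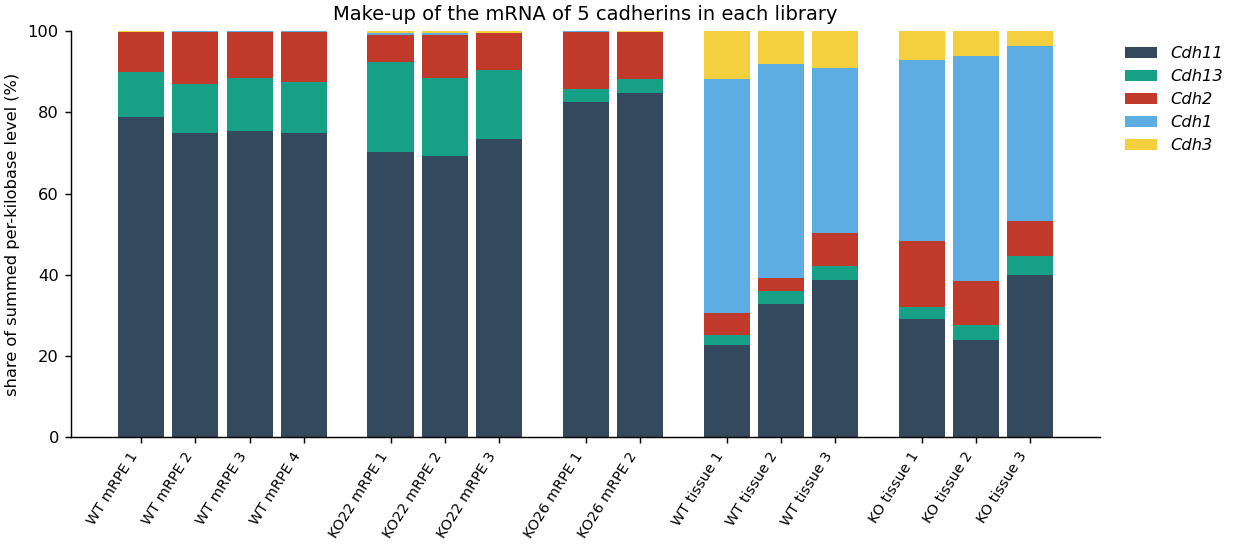
Share of the summed CPM per kilobase of *Cdh1*, *Cdh2*, *Cdh3*, *Cdh11* and *Cdh13* in each library, in percent, with each bar a library and each colour a gene. *Cdh11* takes 69.2% to 84.8% in the mRPE libraries, and *Cdh13* takes 3.24% to 3.34% in KO26 against 11.1% to 22.3% in the other mRPE libraries.

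KO22 differed from WT mRPE most in *Cdh3*, which rose, and *Jup*, which fell. These 2 of 9 genes met the study's limits (adjusted p under 0.05 and a log2 fold change past 1.2 in either direction). *Cdh3* met the read minimum for testing through its KO22 libraries, so it entered the test through the group where it is high. Over all 20455 genes tested in this comparison 11.4% were called higher and 13.8% lower, so 1 gene higher and 1 lower among 9 is near the background. Another 4 genes passed the adjusted p with changes inside the fold limit: *Cdh2*, *Cdh11* and *Ctnnd1* were lower and *Ctnnb1* was higher in KO22. Over all genes tested 53% passed the adjusted p. The median log2 fold change over the 9 genes was 0.01, beside -0.03 over all genes tested. KO22 and WT libraries did not overlap for 6 of 9 genes, beside 50.1% of all genes tested.

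KO26 differed from WT in *Cdh13* and *Jup*, both lower. These were 0 genes higher and 2 lower of 9, beside 1.21% of 20737 genes called higher and 0.719% called lower. The KO26 and WT libraries did not overlap for 3 of 9 genes, beside 24.7% of all genes tested. The other 7 genes had edgeR adjusted p-values from 0.418 to 0.972. KO22 was then set against KO26 itself, where *Cdh2* was lower and *Cdh3* and *Cdh13* were higher in KO22, which makes 2 genes higher and 1 lower beside 7.56% of genes called higher and 10.7% lower over all 20737. By the adjusted p alone 6 of 9 members differed between the lines, beside 34.4% of all genes. The KO22 and KO26 comparisons with WT share the WT libraries.

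**Figure D3:**
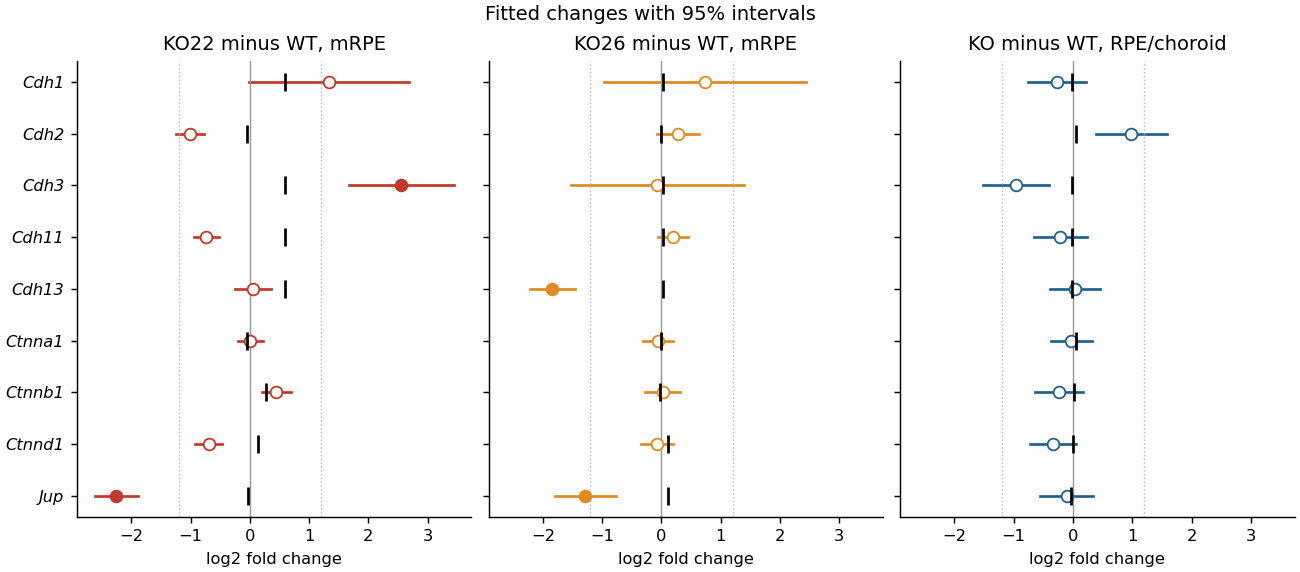
Fitted log2 fold change of each gene (horizontal axis) with a 95% interval of 1.96 standard errors, in KO22 and KO26 against WT mRPE and in RPE/choroid labelled *Prom1*-KO against WT. Filled points passed the adjusted p of 0.05 and the limit of 1.2, drawn as dotted lines, and black ticks mark the median of all tested genes on the gene's chromosome. *Cdh3* (2.55) and *Jup* (-2.25) are filled for KO22, *Cdh13* (-1.84) and *Jup* (-1.28) for KO26, and no gene is filled for RPE/choroid.

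*Cdh2*, on chromosome 18, was at 49.7, 65.1, 64.2 and 62.6 CPM in WT, at 23.5, 36.3 and 28.2 CPM in KO22 and at 75.8 and 62.6 CPM in KO26. All KO22 libraries were below all WT and KO26 libraries, and KO26 overlapped WT. The log2 fold change was -1.01 (SE 0.12, edgeR adjusted p = 0.000106) in KO22, a 2.02-fold lower level that stayed inside the limit of 1.2. As a plain difference of log2 of CPM plus 0.5, the form of all values given within a library set, it was -1.06 within set 8995 and -0.99 within set 9262. In KO26 it was 0.28 (SE 0.18, edgeR adjusted p = 0.418). Between the lines the difference was -1.30 (SE 0.19, edgeR adjusted p = 0.000498), and it came inside the limit without KO22 replicate 1 (-1.15) or without KO26 replicate 1 (-0.97), with adjusted p-values of 8.38e-05 and 0.00368 in edgeR.

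*Cdh1* was close to its detection limit in mRPE. It had 3, 4, 5 and 2 reads in WT, 12, 13 and 2 in KO22 and 6 and 5 in KO26. The groups overlapped, and neither line differed by the test (log2 fold change 1.34, SE 0.69, edgeR adjusted p = 0.132 in KO22; 0.73, SE 0.87, edgeR adjusted p = 0.672 in KO26). Pooled, 27 reads in KO22 against 14 in WT gave a ratio of 2.73 (exact 95% interval 1.38 to 5.62), and 11 in KO26 a ratio of 1.66 (exact 95% interval 0.683 to 3.94). These intervals cover counting error only and leave out the spread between libraries, which the test includes and which ran from 2 to 13 reads in KO22.

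*Cdh3* lies on chromosome 8 at 107237456 to 107283929 (mm39), upstream of *Cdh1* (107329941 to 107396880) on the same strand. It had 7, 1, 2 and 2 reads in WT, 13, 24 and 12 in KO22 and 2 and 3 in KO26. The minimum of 5 reads in 3 libraries was thus met through KO22, for the comparisons with KO26 as well. All KO22 libraries were above all others after scaling, at 0.931 to 1.16 CPM beside 0.0686 to 0.278 CPM in WT and 0.0928 and 0.347 CPM in KO26. Pooled, 49 reads in KO22 against 12 in WT made a 5.77-fold higher level (95% interval 3.03 to 11.9, exact, counting error only). The fitted log2 fold change was 2.55 (SE 0.45, edgeR adjusted p = 0.00115). Against KO26 the log2 difference was 2.59 (SE 0.70, edgeR adjusted p = 0.0153), from 49 against 5 reads (ratio 6.55, exact 95% interval 2.62 to 21.1). Without KO26 replicate 1 that difference was 1.48, with an edgeR adjusted p of 0.193, so the difference between the lines rested on that library. Between KO22 and WT the difference was 1.06 within set 8995 and 1.28 within set 9262, where the added 0.5 shrinks values of genes this low. Even in KO22 *Cdh3* stayed below all other members but *Cdh1*, at 0.161 ± 0.0190 CPM per kilobase (SD, n = 3).

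*Cdh11*, the leading cadherin of these cells, was at 531, 502, 570 and 508 CPM in WT, at 336, 312 and 310 CPM in KO22 and at 599 and 614 CPM in KO26. KO22 was below WT in every library. Both KO26 libraries were above WT with TMM sizes, but scaled to library totals they were at 534 and 657 CPM and overlapped the 485 to 570 CPM of WT. The log2 fold change was -0.73 (SE 0.11, edgeR adjusted p = 0.000416) in KO22 and 0.19 (SE 0.13, edgeR adjusted p = 0.43) in KO26. KO22 was 0.92 below KO26 on the log2 scale (SE 0.13, edgeR adjusted p = 0.000487), which is inside the fold limit.

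*Cdh13* behaved otherwise, with KO22 like WT and KO26 low. It was at 74.2, 80.0, 96.6 and 84.9 CPM in WT, at 106, 86.0 and 71.6 CPM in KO22 and at 23.3 and 24.1 CPM in KO26. Both KO26 libraries lay below all 7 other mRPE libraries. The log2 fold change in KO26 was -1.84 (SE 0.19, edgeR adjusted p = 0.00242), a 3.58-fold lower level, and it was -1.65 within set 8995 and -1.83 within set 9262. In KO22 it was 0.05 (95% interval -0.25 to 0.35, edgeR adjusted p = 0.805). Between the lines the difference was 1.90 (SE 0.20, edgeR adjusted p = 6.37e-05). Both KO26 calls of *Cdh13* held in every alternative fitted.

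*Cdh1*, *Cdh3*, *Cdh11* and *Cdh13* all lie on chromosome 8, where the median log2 fold change was 0.60 over 1089 tested genes in KO22 and 0.02 over 1095 tested genes in KO26. Set against this median, the change in KO22 was 1.95 for *Cdh3*, -1.33 for *Cdh11*, which then passed the fold limit, and -0.55 for *Cdh13*. The medians of the other members' chromosomes in KO22 were -0.05 (chromosome 18, *Cdh2* and *Ctnna1*), 0.27 (chromosome 9, *Ctnnb1*), 0.14 (chromosome 2, *Ctnnd1*) and -0.03 (chromosome 11, *Jup*). The part of these chromosome-wide shifts in the members' changes was not tested.

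*Jup*, which encodes plakoglobin and is the only member lower in both lines by the study's limits, was at 19.7, 12.6, 12.7 and 15.3 CPM in WT, at 3.29, 3.28 and 2.95 CPM in KO22 and at 9.84 and 4.16 CPM in KO26. The 3 groups did not overlap: every KO26 library lay below WT and above KO22. In KO22 the log2 fold change was -2.25 (SE 0.18, edgeR adjusted p = 1.31e-05), a 4.76-fold lower level, and the call held in all 15 alternatives. Within the library sets it was -2.42 and -1.95. In KO26 it was -1.28 (SE 0.26, edgeR adjusted p = 0.028), and the 2 KO26 libraries differed between themselves by more than any 2 WT libraries did in ratio. That call held in 8 of 14 alternatives, with adjusted p-values from 8.35e-05 to 0.157. It was lost without KO26 replicate 2 (-0.88, edgeR adjusted p = 0.0916), without any 1 of the 4 WT replicates (-1.23 to -1.34, edgeR adjusted p = 0.0692 to 0.083) and without the library set term (-1.08, edgeR adjusted p = 0.157). KO22 was 0.97 below KO26 (SE 0.28, edgeR adjusted p = 0.0203), inside the fold limit.

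*Ctnnb1*, the closest relative of *Jup* among the members, was at 504, 366, 414 and 339 CPM in WT, at 575, 559 and 533 CPM in KO22 and at 511 and 367 CPM in KO26. KO22 was above every WT library, by a log2 fold change of 0.44 (SE 0.12, edgeR adjusted p = 0.0134). Set against the median of its chromosome, 9, the change was 0.17. Within set 8995 it was 0.19 and within set 9262 0.55. In KO26 the log2 fold change was 0.03 (95% interval -0.27 to 0.32). β-catenin and plakoglobin mRNA therefore stood in a different proportion in the lines: per kilobase, *Ctnnb1* was at 67.1 ± 2.46 CPM in KO22 (SD, n = 3) while *Jup* was at 0.352 ± 0.0223 CPM, and in WT they were at 50.4 and 1.72 CPM.

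*Ctnnd1* was at 68.8, 65.0, 66.2 and 61.7 CPM in WT, at 50.0, 35.0 and 39.0 CPM in KO22 and at 66.9 and 62.7 CPM in KO26. KO22 was below every other library, with a log2 fold change of -0.70 (SE 0.11, edgeR adjusted p = 0.000768) against WT and -0.62 (SE 0.14, edgeR adjusted p = 0.00641) against KO26, both inside the fold limit. *Ctnna1* did not separate the groups, at 234 to 298 CPM in WT, 238 to 303 CPM in KO22 and 228 to 299 CPM in KO26. Its log2 fold changes were 0.01 (95% interval -0.20 to 0.21) and -0.06 (95% interval -0.32 to 0.19).

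The promoters of *Jup* and *Ctnnb1* are given because these related genes, whose proteins compete for the same cadherin tail, differed in direction in KO22. The rise of *Ctnnb1* was small and not called (log2 fold change 0.44, and 0.17 against the median of its chromosome). Of the 9 members, 3 had an entry among RefSeq promoters of build GRCm38.p6 (*Jup*, *Ctnnb1* and *Ctnnd1*), a build other than the files' mm39. The lines give 180 bases on the gene's strand, from 250 to 71 bases before the RefSeq start. That of *Jup* is chr11:100397861-100398040 (minus strand) and that of the upstream start of *Ctnnb1* is chr9:120933150-120933329 (plus strand). Capitals mark matches, on either strand, to CCAAT (or ATTGG) and to the GC box GGGCGG (or CCGCCC).
Jup: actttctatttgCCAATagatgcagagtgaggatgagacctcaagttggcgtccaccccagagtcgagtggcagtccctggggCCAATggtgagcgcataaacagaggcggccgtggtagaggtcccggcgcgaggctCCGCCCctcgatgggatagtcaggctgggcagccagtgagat
Ctnnb1: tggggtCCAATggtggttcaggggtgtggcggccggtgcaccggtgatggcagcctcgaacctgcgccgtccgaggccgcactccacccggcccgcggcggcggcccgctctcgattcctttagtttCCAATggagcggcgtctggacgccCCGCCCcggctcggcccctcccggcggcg
Each held 2 matches to CCAAT, 1 to GGGCGG and none to the E-box CACCTG (or CAGGTG), the kind of site that Snail and Zeb proteins bind. Of all 32851 promoter windows of this length, 25.0% held CCAAT, 21.1% held GGGCGG and 13.0% held CACCTG. G and C made up 60.0% of the *Jup* window and 73.9% of the *Ctnnb1* window. The motifs searched for thus did not separate the promoters, and no motif is shown to act in these cells.

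The ratio of *Cdh2* to *Cdh1*, which is often read as a measure of cadherin switching between epithelial and mesenchymal states, was computed per library as log2 of counts plus 0.5. It was 8.48, 7.72, 6.89 and 8.45 in WT mRPE, 4.45, 5.80 and 7.18 in KO22 and 7.97 and 6.62 in KO26. KO22 was lower by 2.08 on average, with 1 of its 3 libraries inside the WT range (two-sided exact permutation test, n = 3 and 4, p = 0.0857; the smallest p this design allows is 0.0286). The ratio of *Cdh3* to *Cdh1* was 1.10, -1.58, -1.14 and 0 in WT, 0.11, 0.86 and 2.32 in KO22 and -1.38 and -0.65 in KO26. Its difference of 1.50 between KO22 and WT was not larger than the spread (two-sided exact permutation test, n = 3 and 4, p = 0.2). The few *Cdh1* reads, 2 to 13 a library, set the precision of both ratios. Against WT of the same library set, KO22 was lower in the *Cdh2* ratio in set 8995 (4.45 against 8.48), while in set 9262 KO22 (5.80 and 7.18) overlapped WT (6.89 to 8.45).

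In RPE/choroid none of the 9 genes was called, beside 0% of 24926 tested genes called higher and 0.189% (47 genes) called lower. Over all genes 2068 had an unadjusted p under 0.05 in edgeR, and *Cdh2* and *Cdh3* were the 2 members among them. DESeq2 called 83 genes higher and 188 lower, and no member. With TMM sizes the libraries did not overlap for 2 of 9 genes, beside 14.6% of all genes tested. TMM gave replicate 3 labelled *Prom1*-KO a factor of 0.488, beside 1.07 to 1.33 in the other 5 libraries, and scaling to library totals in its place, an alternative chosen after seeing the data, shifted the median of all genes from 0.01 to -0.46. In bulk tissue, fewer cells of a type and less RNA per cell cannot be told apart.

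*Cdh3* was at 12.5, 9.84 and 8.58 CPM in WT and at 6.21, 6.37 and 3.18 CPM in the libraries labelled *Prom1*-KO. All 3 of the latter were below all 3 WT libraries, with a log2 fold change of -0.96 (SE 0.28, unadjusted p = 0.0103 and adjusted p = 0.375 in edgeR). *Cdh2* was at 7.42, 5.04 and 9.90 CPM in WT and at 19.2, 14.8 and 10.2 CPM in the libraries labelled *Prom1*-KO. The log2 fold change was 0.98 (SE 0.30, unadjusted p = 0.0134 and adjusted p = 0.411 in edgeR). With these TMM sizes replicate 3 lay narrowly above WT, but scaled to library totals it was at 4.99 CPM, below the 5.67 to 13.1 CPM of WT, while replicates 1 and 2 stayed above WT at 20.5 and 15.9 CPM. With library totals the log2 fold change of *Cdh2* was 0.58 (edgeR adjusted p = 0.663) and that of *Cdh3* was -1.31 (edgeR adjusted p = 0.54), and *Cdh3* was still below WT in all 3 libraries. Neither passed the correction over all genes. Without replicate 3 labelled *Prom1*-KO, the library with 84.2% mitochondrial reads, the log2 fold changes were -0.73 for *Cdh3* and 1.18 for *Cdh2*, with edgeR adjusted p-values of 0.321 and 0.3.

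With TMM sizes, all but *Best1* of the 7 RPE markers were lower in every library labelled *Prom1*-KO than in WT. Their summed level was 1422 to 2303 CPM in WT and 98.9 to 222 CPM in the libraries labelled *Prom1*-KO, and 4 of 7 were called lower: *Rpe65*, the isomerase of the visual cycle (log2 fold change -6.06, edgeR adjusted p = 0.0191), *Rgr* (-5.23, edgeR adjusted p = 0.0242), *Lrat* (-3.43, edgeR adjusted p = 0.00445) and *Rdh5* (-2.10, edgeR adjusted p = 0.0242). *Rlbp1* (-2.07, edgeR adjusted p = 0.0929) and *Ttr* (-3.01, edgeR adjusted p = 0.0709) were lower but not called. *Best1* overlapped between the groups (-0.25, edgeR adjusted p = 0.912). *Cdh3*, at a log2 fold change of -0.96, was not called (edgeR adjusted p = 0.375). The surface epithelium markers summed to 755 to 1305 CPM in the libraries labelled *Prom1*-KO, with 0 of 5 called, and the melanocyte markers to 911 to 951 CPM beside 612 to 960 CPM in WT. The endothelial markers were at 41.2 to 63.2 CPM beside 64.8 to 134 CPM in WT, with 0 of 6 called. Photoreceptor markers ranged from 38.4 to 1093 CPM in WT and from 18.6 to 520 CPM in the libraries labelled *Prom1*-KO, a wide range within each group. Schwann cell markers, of a glial type that also uses *Cdh2*, ranged from 64.0 to 83.6 CPM in WT and from 56.5 to 262 CPM in the libraries labelled *Prom1*-KO. The part of these cell types in the *Cdh2* and *Cdh3* values was not tested.

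**Figure D4:**
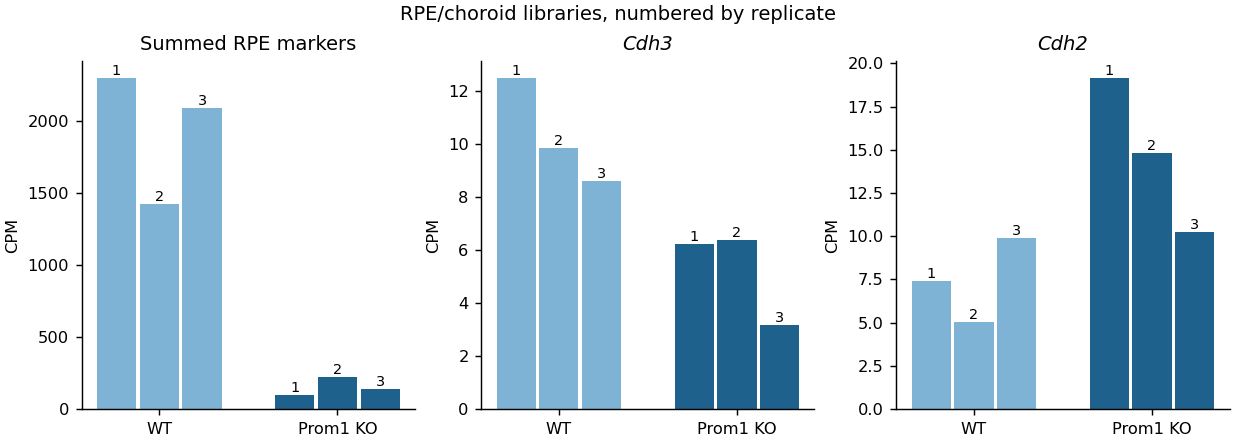
CPM in the 6 RPE/choroid libraries, numbered by replicate: the sum of 7 RPE markers, *Cdh3* and *Cdh2*, with each bar a library. The marker sum is 98.9 to 222 CPM in the libraries labelled *Prom1*-KO beside 1422 to 2303 CPM in WT, *Cdh3* is 3.18 to 6.37 CPM beside 8.58 to 12.5 CPM, and *Cdh2* is 10.2 to 19.2 CPM beside 5.04 to 9.90 CPM. CPM use TMM sizes; with library totals *Cdh2* in replicate 3 labelled *Prom1*-KO falls below WT.

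The other 7 members overlapped between the tissue groups with TMM sizes. With library totals, *Cdh11*, *Ctnnb1* and *Ctnnd1* were lower in all 3 libraries labelled *Prom1*-KO than in WT, with log2 fold changes of -0.76, -0.62 and -0.74 beside the all-gene median of -0.46. The share of all genes that did not overlap on that scale was not computed. The separation of these genes, and that of *Cdh3* on that scale, therefore has no background to be read against. *Cdh1* was at 43.8, 44.7 and 26.8 CPM in WT and at 27.9, 40.5 and 27.2 CPM in the libraries labelled *Prom1*-KO (log2 fold change -0.27, 95% interval -0.75 to 0.21). *Jup*, low in both mRPE lines, was at 73.6, 63.4 and 56.1 CPM in WT tissue and at 57.2, 78.3 and 43.8 CPM in the libraries labelled *Prom1*-KO (log2 fold change -0.11, 95% interval -0.55 to 0.34). *Cdh13*, low in KO26, was at 4.88 to 7.24 CPM and 4.66 to 7.07 CPM (log2 fold change 0.03, 95% interval -0.39 to 0.46). *Cdh11*, *Ctnna1*, *Ctnnb1* and *Ctnnd1* had log2 fold changes of -0.21, -0.03, -0.24 and -0.34, with edgeR adjusted p-values from 0.726 to 0.983. The log2 ratio of *Cdh2* to *Cdh1* was -2.56, -3.15 and -1.44 in WT tissue and -0.54, -1.45 and -1.41 in the libraries labelled *Prom1*-KO, a difference of 1.25 (two-sided exact permutation test, n = 3 and 3, p = 0.2; the smallest p this design allows is 0.1). The ratio of *Cdh3* to *Cdh1* differed by -0.76 (two-sided exact permutation test, n = 3 and 3, p = 0.2).

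Other cadherins were scarce in mRPE. Of 17 further classical and atypical cadherins listed, 3 were in the mRPE table and 14 in the RPE/choroid table. KO22 had 2 of the 3 lower, beside 13.8% of all genes. *Cdh17*, the liver and intestine cadherin, was at 4.12 to 6.12 CPM in WT, 0.698 to 1.04 CPM in KO22 and 5.55 and 14.8 CPM in KO26, and it fell in KO22 (log2 fold change -2.39, edgeR adjusted p = 5.44e-05). *Cdh26* had 83 reads in WT, 5 in KO22 and 178 in KO26. In the comparison of KO22 with WT, *Cdh26* met the read minimum for testing through WT alone. It fell in KO22 (11.7-fold lower by reads, exact 95% interval 4.84 to 37.1, edgeR adjusted p = 0.000929) and rose in KO26 (log2 fold change 1.95, edgeR adjusted p = 0.0496). *Cdh24* had a log2 fold change of 1.16 in KO22 (edgeR adjusted p = 0.00848), inside the fold limit. In RPE/choroid 0 of the 14 listed were called, and the endothelial *Cdh5* was at 11.4 to 22.8 CPM in WT and 4.94 to 11.4 CPM in the libraries labelled *Prom1*-KO.

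Of 9 further members of the catenin family, 5 were in the mRPE table, and KO22 had 2 higher and 2 lower, beside 11.4% of all genes called higher and 13.8% lower. *Pkp1*, a plakophilin of the desmosomal plaque, had 162 reads in KO22 and 1 in WT (ratio 229, exact 95% interval 40.5 to 9099), and 1 in KO26. It met the read minimum for testing through its KO22 libraries alone. *Pkp4*, a relative of p120-catenin found at both kinds of junction, was at 82.4 to 96.2 CPM in KO22 and 14.1 to 27.0 CPM in WT (log2 fold change 2.18, edgeR adjusted p = 3.90e-06). *Arvcf*, a close p120-catenin relative, was at 2.27 to 3.98 CPM in KO22 and 8.50 to 14.5 CPM in WT (-1.86, edgeR adjusted p = 0.000352). *Ctnnal1*, an α-catenin-like gene, was at 14.8 to 19.9 CPM in KO22 and 50.0 to 67.5 CPM in WT (-1.71, edgeR adjusted p = 2.26e-05). KO26 had 0 of these 5 called.

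Of 20 adherens junction partners tested in mRPE, KO22 had 2 higher and 1 lower, no more than the 11.4% and 13.8% of all genes. KO26 had 0 higher and 1 lower, beside 1.21% and 0.719% of all genes. *Plekha7*, which binds p120-catenin at the junction, was lower in both: it was at 3.50, 5.14, 3.63 and 5.24 CPM in WT, at 0.173, 0.820 and 0.466 CPM in KO22 and at 0.882 and 1.73 CPM in KO26. Both lines lay below WT in every library, with log2 fold changes of -3.05 (SE 0.36, edgeR adjusted p = 0.000104) and -1.64 (SE 0.38, edgeR adjusted p = 0.0435). *Nectin1*, a nectin adhesion receptor, and *Ssx2ip*, which binds afadin, rose in KO22 (1.27 and 1.29, edgeR adjusted p = 0.0047 and 7.42e-05). The other 17 partners, among them vinculin (*Vcl*) and afadin (*Afdn*), were not called in KO22. The median of the 20 was -0.21 in KO22 beside -0.03 for all genes, and -0.11 in KO26 beside 0.03.

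Of 8 desmosomal genes, *Perp*, a membrane protein that desmosomes of stratified epithelia require, was in the mRPE table. It had 315 reads in WT, 2 in KO22 and 196 in KO26, and it fell in KO22 (111-fold lower by reads, exact 95% interval 30.6 to 924, edgeR adjusted p = 1.89e-05). Replicates 1 and 3 of KO22 had 0 reads. In the comparison of KO22 with WT, *Perp* met the read minimum for testing through WT alone. In RPE/choroid all 8 were tested and 0 were called. *Dsp*, the desmosomal plaque protein desmoplakin, was at 294 to 404 CPM there in WT and at 351 to 498 CPM in the libraries labelled *Prom1*-KO. With TMM sizes the median of the 8 was 0.30 beside 0.01 for all genes. Scaled to library totals the all-gene median was -0.46, and the median of the 8 on that scale was not computed.

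Of 18 genes of β-catenin turnover and its nuclear partners tested in mRPE, 3 fell in KO22 and 0 rose, beside 13.8% of all genes called lower and 11.4% higher, so the number that fell is near the background. The median was -0.01 beside -0.03 for all genes. *Tcf7l2*, a DNA-binding partner of β-catenin, was at 84.9 to 94.1 CPM in WT, 14.8 to 21.4 CPM in KO22 and 67.1 and 85.7 CPM in KO26 (log2 fold change -2.25, SE 0.14, edgeR adjusted p = 2.83e-06 in KO22). *Axin2*, a scaffold of the complex that degrades β-catenin and a common target gene of Wnt signalling, was at 6.83 to 8.84 CPM in WT, 1.40 to 1.99 CPM in KO22 and 5.20 and 6.31 CPM in KO26 (-2.19, SE 0.23, edgeR adjusted p = 4.94e-05 in KO22). *Btrc*, which marks β-catenin for degradation, was at 43.0 to 60.5 CPM in WT and 16.9 to 23.5 CPM in KO22 (-1.35, SE 0.11, edgeR adjusted p = 1.12e-05). KO26 had 0 of 18 called. *Ctnnb1* mRNA was higher in the same KO22 libraries.

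Of 6 transcription factors known to repress *Cdh1*, KO22 had 1 higher beside 11.4% of all genes. This was *Twist2*, at 9.88 to 15.7 CPM beside 2.45 to 3.34 CPM in WT (log2 fold change 1.99, edgeR adjusted p = 2.19e-05). *Snai2* was at 11.1 to 22.9 CPM in KO22, 29.4 to 36.3 CPM in WT and 49.8 and 50.1 CPM in KO26. It was lower in KO22 than in KO26 (-1.48, edgeR adjusted p = 0.00139), and its change against WT was inside the fold limit (-0.85, edgeR adjusted p = 0.00807). *Zeb1*, *Zeb2*, *Snai1* and *Twist1* were not called in either line. In RPE/choroid 0 of 6 were called.

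**Figure D5:**
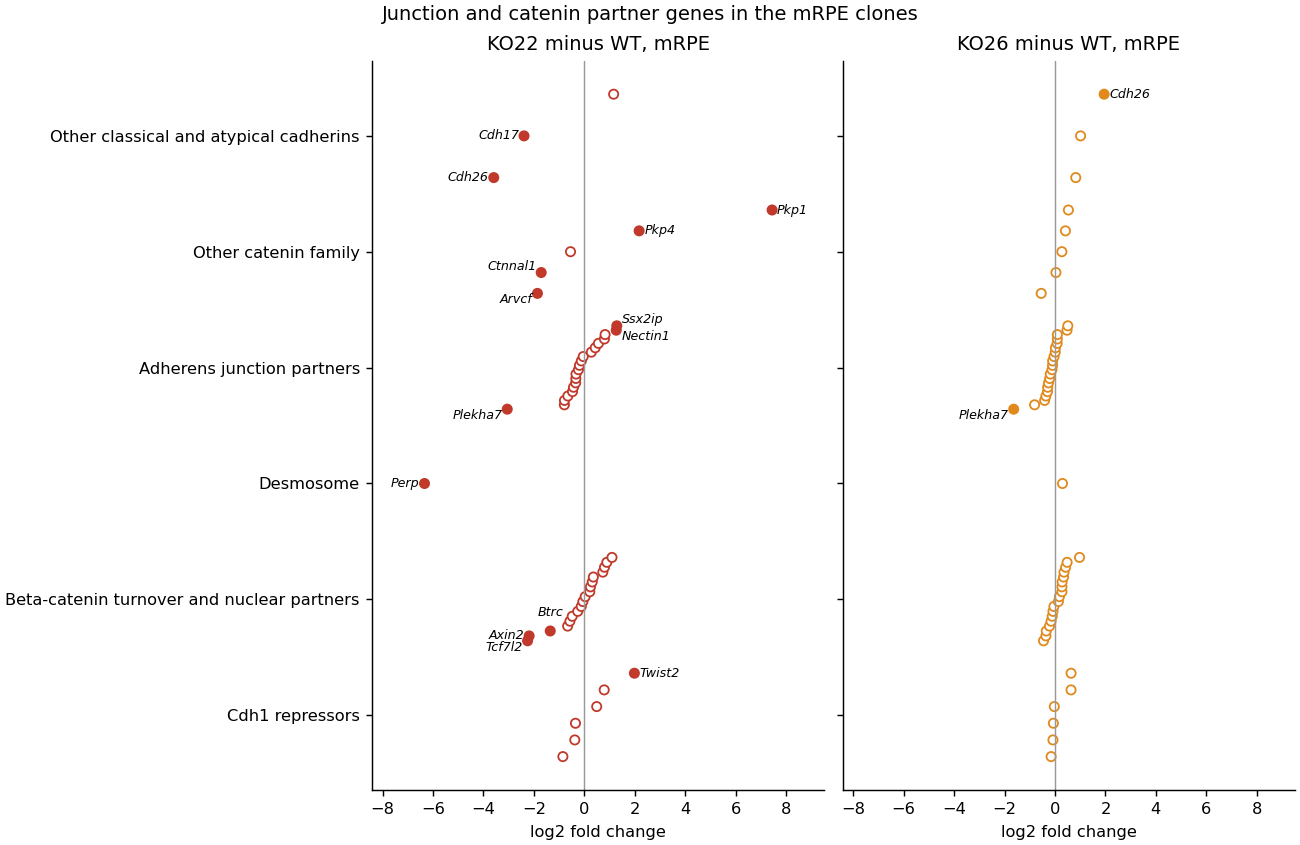
Log2 fold change (horizontal axis) of the genes of 6 lists in KO22 and KO26 against WT mRPE, with each point a gene. Filled, named points passed the adjusted p of 0.05 and the limit of 1.2. KO22 has filled points in all 6 lists, from *Perp* at -6.34 to *Pkp1* at 7.45, and KO26 has 2, *Cdh26* at 1.95 and *Plekha7* at -1.64. *Pkp1* and *Perp* rest on 1 and 2 reads on the low side.

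The genes whose levels ran most like each member over the 9 mRPE libraries were named by Pearson's r of log2 CPM, as a description. These libraries fall into 3 cell groups and share them, so r follows the groups. For *Cdh2* they were *Zfp423*, *Mkrn1* and *Gli2* (r = 0.989, 0.989 and 0.988), for *Cdh11* *Igf1*, *Slc41a3* and *Fuca2* (r = 0.996, 0.993 and 0.992), and for *Cdh13* *Adam22*, *Map4k5* and *Ap3s1* (r = 0.969, 0.962 and 0.958). For *Jup* they were *Tmem88b*, *Ano4* and *Stx8* (r = 0.983, 0.981 and 0.976), and for *Ctnnd1* *Hspa2*, *Wasl* and *Pbxip1* (r = 0.996, 0.989 and 0.988). For *Ctnnb1* they were *Cemip2*, *Chmp7* and *Entr1* (r = 0.991, 0.985 and 0.981), and for *Ctnna1* *Selenos*, *Uhmk1* and *Zfp664* (r = 0.963, 0.961 and 0.957). *Cdh2* had 250 genes with r over 0.95 and *Cdh11* 234, while *Cdh13* had 6 and *Ctnna1* 4. The nearest genes of *Cdh3* were *4933432I03Rik*, *Gm15645* and *Ecscr* (r = 0.979, 0.979 and 0.975), and those of *Cdh1* were *Vwf*, *Trim56* and *Btg4* (r = 0.940, 0.911 and 0.896), on few reads for both members.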

How the data were processed

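Per the labels and the study's methods, the authors trimmed polyA RNA reads with Trim Galore 0.6.7, aligned them to mm39 with STAR and counted them per gene; the methods state this for mRPE, with genes of fewer than 5 counts in at least 3 samples left out. Labels and methods name different stranded library kits. The deposited counts are raw whole numbers per gene, from tables of 20910 (mRPE) and 25038 (RPE/choroid) genes; the authors' normalized tables were not used. Total counts are in the report.

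Each table was fitted with edgeR 4.0.16 (quasi-likelihood test, TMM scaling) on genes that reached 5 counts in 3 or more libraries, with a term for library set in mRPE. KO22 and WT were fitted on their 7 libraries, and the KO26 contrasts on all 9. Calls needed a Benjamini-Hochberg adjusted p under 0.05 over all genes tested and a log2 fold change past 1.2, the study's limits. Scripts were tested on simulated data. Intervals of pooled reads are exact and cover counting error only. Intervals of fold changes span 1.96 standard errors on each side. This normal approximation is narrower than an interval from the few degrees of freedom of the edgeR test. Gene positions and exon lengths are from GENCODE (mm39), which matched 99.2% of IDs. Alternatives were DESeq2 1.42.0, other scaling, filters and terms, and leaving out libraries; leaving out mitochondrial genes and scaling to library totals were added after seeing the data. The members and lists were chosen with earlier results of these data known. A gene of the lists is not reported here and was left out of their counts. Named genes are the 9 members, the genes of the lists where they were called or help describe a list, and the 3 genes most like each member.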

Additional observations from a re-analysis of the deposited data

Results flagged for a closer look

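*Cdh2* in WT mRPE replicate 1, the WT library of set 8995, was at 49.7 CPM beside 62.6 to 65.1 CPM in the other 3, a gap beyond the limit used for groups of 4; chance alone marks about 1 in 20 groups. It still lay above every KO22 library.

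KO22 and KO26 differed from each other at an edgeR adjusted p under 0.05 in 6 of 9 members, beside 34.4% of all 20737 genes. The log2 differences, KO22 minus KO26, were -1.30 for *Cdh2*, 2.59 for *Cdh3*, -0.92 for *Cdh11*, 1.90 for *Cdh13*, -0.62 for *Ctnnd1* and -0.97 for *Jup*. Both lines were edited in the same gene, and each is represented by repeated libraries of that line, so differences between lines cannot be told apart from differences between edits.

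With TMM sizes, *Cdh2* and *Cdh3* ran in opposite directions in KO22 and in tissue. Over all genes tested, the libraries did not overlap for 50.1% in KO22 against WT and for 14.6% in tissue. The share of all genes that did so in opposite directions was not computed. *Cdh2* was lower in all 3 KO22 libraries (-1.01) and higher in all 3 RPE/choroid libraries labelled *Prom1*-KO (0.98). Scaled to library totals, *Cdh2* in replicate 3 of the latter, the library that stood apart, was at 4.99 CPM, below the 5.67 to 13.1 CPM of WT, so for *Cdh2* this pattern does not hold in every library. *Cdh3* was higher in all 3 KO22 libraries (2.55) and lower in all 3 RPE/choroid libraries labelled *Prom1*-KO (-0.96). In tissue neither gene passed the correction over all genes (edgeR adjusted p = 0.411 for *Cdh2* and 0.375 for *Cdh3*). KO26 overlapped WT in both genes, with log2 fold changes of 0.28 for *Cdh2* and -0.07 for *Cdh3* (edgeR adjusted p = 0.418 and 0.972). The difference between KO22 and tissue was not tested.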

How the results depend on the processing

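No alternative reversed a call. In KO22 against WT, *Cdh3* and *Jup* stayed called in all 15 alternatives. Without the fold limit KO22 had 2 members higher and 4 lower (5506 and 5331 of all genes), KO26 490 genes higher and 235 lower, and KO22 against KO26 4 members lower (3388 and 3744 genes). Centring on chromosome medians gave 2 members lower in KO22, and 2 in KO22 against KO26, by *Cdh11*. For KO26, leaving out the library set term left 1 member lower (123 genes higher, 71 lower), fitting the compared groups alone gave 408 and 410 genes, and DESeq2 called 269 lower. For KO22 against KO26 alone, 1 member was higher (988 genes higher, 1348 lower), as *Cdh3* lost its call (adjusted p = 0.0669). In RPE/choroid DESeq2 called 83 genes higher and 188 lower, and without mitochondrial genes, a setting added once the data had been seen, it was 1 higher in edgeR. Library totals in place of TMM, also added later, gave 4 genes higher and 84 lower there, no member called, and the same counts of members called in mRPE. The causes were not tested.

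Leaving out 1 library at a time gave, in KO22, 1 member higher and 1 lower each time (1791 to 2654 genes higher, 2490 to 3079 lower); in KO26, 0 members higher and 1 to 2 lower (68 to 368 genes higher, 32 to 258 lower); in KO22 against KO26, 1 to 2 members higher and 0 to 2 lower (1272 to 1832 genes higher, 1992 to 2397 lower); and in RPE/choroid 0 members (0 to 5 genes higher, 9 to 37 lower). A lone KO26 library was assumed to vary like the other groups. The *Cdh2* to *Cdh1* ratio differed by -2.76 to -1.39 in KO22 and 0.86 to 1.72 in RPE/choroid, and the *Cdh3* to *Cdh1* ratio by 0.89 to 2.01 and -1.0 to -0.54. The order of the members in both WT groups was the same with TMM library sizes. No paired analysis was possible because the labels give the groups no shared replicate numbers. The library sets, which the labels do give, were a term of the mRPE fits, and the values without that term are those above.

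At 1 to 24 reads a library in mRPE, the log2 fold changes of *Cdh1* and *Cdh3* against WT had standard errors of 0.45 to 0.87.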
